A study of Rattus norvegicus with 12 samples.

Results

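The genes of the major histocompatibility complex (MHC) and of antigen presentation were described in the hippocampus of 2 selectively bred rat lines. They comprise every array probe whose gene symbol begins with RT1-, the name of the rat MHC, and the probes of 12 further genes named singly, *B2m*, *Cd74*, *Tap1*, *Tap2*, *Tapbp*, *Psmb8*, *Psmb9*, *Psmb10*, *Psme1*, *Psme2*, *Ciita* and *Cd1d1*. This gave 41 probes for 40 genes out of 22523 probes for 21568 symbols on the array, of which 28 were RT1 probes and 13 belonged to the other 12 genes, *Psmb10* having a pair. *Mr1*, also named in the rule, was not analysed here. A further 9 probes of RT1 genes are listed under other symbols, such as *H2-Ob* for *RT1-DOb*, and are given only as companions.

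The study compared bHR (bred High Responder) with bLR (bred Low Responder) rats, lines selected for high or low locomotor response to an unfamiliar environment. All 12 animals were males of generation F15 at postnatal day 14, with no treatment named in the labels, and the RNA came from the whole hippocampus. There were 6 bHR rats, numbered 27, 29, 33, 39, 41 and 47, and 6 bLR rats, numbered 26, 28, 30, 38, 42 and 46, with 1 Illumina RatRef-12 array for each. The groups differ by descent in 1 pair of lines, and litters are not given in the sources used here.

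MHC class I molecules carry short peptides to the cell surface for CD8 T cells and natural killer cells. Their heavy chain, encoded in the rat by the highly polymorphic class Ia genes *RT1-A1*, *RT1-A2* and *RT1-A3* and by many class Ib genes, pairs with beta-2-microglobulin, and its peptides are cut by the proteasome, pumped into the endoplasmic reticulum by the TAP transporter and loaded with the help of tapasin. Class II molecules present peptides from endosomes to CD4 T cells and are made mainly by professional antigen-presenting cells under the control of CIITA, with Cd74 as their chaperone. In the brain, class I genes are transcribed in neurons as well as glia and are known for a part in the refinement of synapses during development, while class II is scarce outside microglia and border macrophages.

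Values are log2 intensities after quantile normalisation, so a difference of 1 is a 2-fold change of signal, and levels of different probes are not comparable with each other. The mean raw signal of the arrays ran from 453 to 1038, and the 3 dimmest arrays, between 453 and 488, were all bHR rats (27, 29 and 39), against at least 750 in the other 9. These 9 brighter arrays held 3 bHR and 6 bLR rats. The array of bHR 27 correlated least with the rest, with a mean r of 0.987 over all probes against at least 0.992 for each other array. All 12 hippocampal neuron markers examined read above the median of all probes, 6.66. A probe is called above the median where the mean of at least 1 line exceeded that value, as 11451 probes did. Of the 41 probes, 22 did so, namely 12 of 28 RT1 probes and 10 of 13 others. In bulk tissue fewer cells of a type and less RNA per cell cannot be told apart.

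No MHC or antigen presentation gene passed the test between the lines. With limma and Benjamini-Hochberg adjustment over all 22523 probes, 0 of 41 probes were called at an adjusted p of 0.05, beside 20 of all probes, or 0.0888%. That background was 0.0311% for probes higher in bHR and 0.0577% for probes lower in bHR. Before adjustment 1 of 41 probes, *Tap2*, had a p under 0.05, beside 6.02% of all probes, and in 0 of 41 did the ranges of the lines not overlap, beside 0.391% of all probes. Values were higher in bHR for 21 probes and lower for 20, and the median difference was 0.0012 on the log2 scale, beside 0.0017 over all probes. The limma adjusted p of the 41 probes ran from 0.81 to nearly 1 (0.999).

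**Figure D1:**
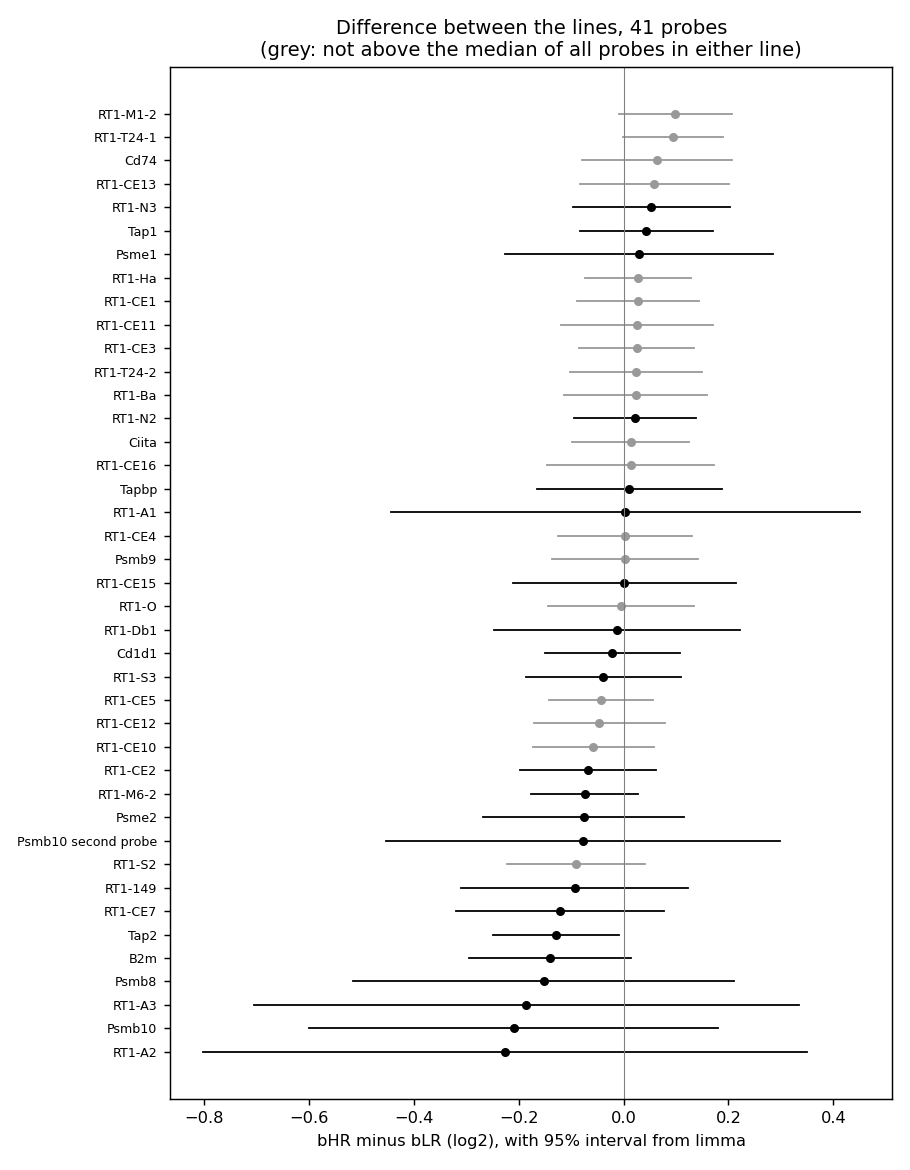
Difference between the lines (bHR minus bLR, log2) for each of the 41 probes, sorted by value, with its 95% confidence interval from the limma fit and with probes not above the median of all probes in grey. The points run from -0.23 for *RT1-A2* to 0.10 for *RT1-M1-2*, and the intervals are widest for the class Ia genes and *Psmb10*.

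The 3 class Ia genes, which encode the classical peptide-presenting heavy chains, varied between rats far more than most probes. Their spread within lines, pooled over both lines, stood at the 99.0, 99.6 and 99.4 percentile of all probes for *RT1-A1*, *RT1-A2* and *RT1-A3*. The difference between the lines was small beside that pooled spread for each of them. Single rats weighed heavily in it. Apart from rat 30, the bLR rats read 8.46 to 8.78 for *RT1-A1* and 7.64 to 8.03 for *RT1-A2*. For *RT1-A2* in bHR, rat 27 read 6.47 and the next rat 7.63.

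*RT1-A1* read 7.83, 8.25, 8.41, 8.63, 8.81 and 8.83 in bHR rats 47, 41, 29, 39, 33 and 27. In bLR rats 30, 38, 46, 42, 26 and 28 it read 7.54, 8.46, 8.49, 8.71, 8.77 and 8.78. The lines overlapped throughout, and bLR 30 lay lowest of all rats. The means were 8.46 ± 0.38 in bHR and 8.46 ± 0.47 in bLR (SD, n = 6 each), a difference of 0.0035 with a 95% interval from -0.44 to 0.45 (limma adjusted p = 0.998). It was -0.07 without bHR 27, -0.17 in the 9 brighter arrays and -0.25 with median centring.

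*RT1-A2* read 6.47, 7.63, 7.69, 8.03, 8.29 and 8.40 in bHR rats 27, 33, 29, 39, 41 and 47. In bLR rats 28, 38, 42, 46, 26 and 30 it read 7.64, 7.76, 7.85, 7.91, 8.03 and 8.67. The bHR rats spanned nearly the whole range, with bHR 27 far below every other rat. The means were 7.75 ± 0.70 and 7.98 ± 0.36 (SD, n = 6 each), a difference of -0.23 with a 95% interval from -0.80 to 0.35 (limma adjusted p = 0.94). The sign turned without bHR 27, to 0.03, and the difference was 0.13 both in the 9 brighter arrays and with array brightness as a block.

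*RT1-A3* read 6.31, 6.45, 7.14, 7.28, 7.39 and 7.63 in bHR rats 47, 41, 33, 29, 39 and 27. In bLR rats 30, 46, 38, 28, 26 and 42 it read 6.45, 7.10, 7.23, 7.28, 7.33 and 7.92. Here 3 rats from both lines, bLR 30, bHR 41 and bHR 47, lay below the other 9 with no rat between. The values of these 3 low rats were under the median of all probes, 6.66. The means were 7.03 ± 0.53 and 7.22 ± 0.47 (SD, n = 6 each), a difference of -0.19 with a 95% interval from -0.70 to 0.33 (limma adjusted p = 0.95). Among the 9 brighter arrays alone the difference was -0.62 (limma adjusted p = 0.86), and with array brightness as a block it was -0.58 (limma adjusted p = 0.97). Of the bHR rats the 9 brighter arrays hold only 33, 41 and 47, and of these 41 and 47 are low rats.

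**Figure D2:**
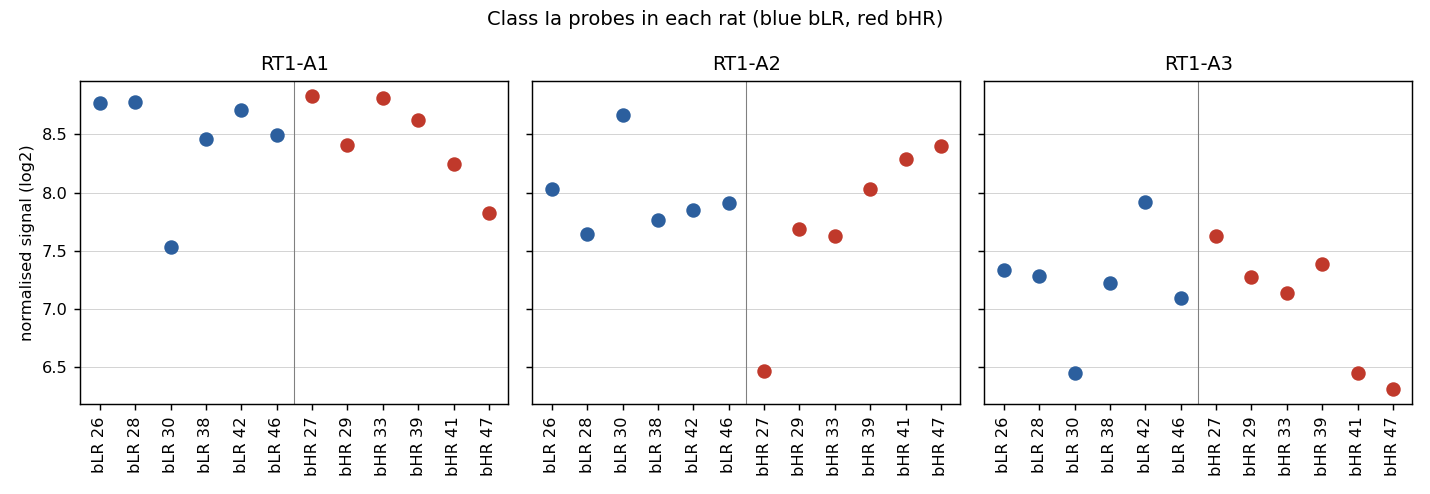
Log2 signal of *RT1-A1*, *RT1-A2* and *RT1-A3* in each of the 12 rats, 1 point per rat, bLR in blue and bHR in red. In *RT1-A3* the rats bLR 30, bHR 41 and bHR 47 sit between 6.31 and 6.45 and the other 9 between 7.10 and 7.92.

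A step between rats was described as a largest gap between neighbouring values with at least 2 rats on each side. No member had a gap of 1 or more on the log2 scale, beside 0.107% of all probes. The gap of *RT1-A3*, 0.64 or 1.56-fold, was the largest of the 41, and at a gap of 0.5, a size chosen after the values were seen, *RT1-A3* was the only member, beside 0.422% of all probes. The next largest was *RT1-A1*, whose gap of 0.42 set bLR 30 and bHR 47 below the rest. The size of the *RT1-A3* gap depended on the scaling. With median centring it was 0.67, with the same 3 rats below. With no scaling the largest gap of *RT1-A3* was 0.28, with 10 rats below, so it had no step of 0.5.

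The rats below the *RT1-A3* gap also stood at 1 end in 3 of the 40 other member probes, all of them RT1 genes, beside 1.19% of all probes. They were the lowest 3 for *RT1-A1* (7.54 to 8.25, the other 9 rats from 8.41) and the highest 3 for *RT1-A2* (8.29 to 8.67, the other 9 up to 8.03). For *RT1-Db1*, a class II beta chain, they were also highest, but by a margin of only 0.014.

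How many members shared this order depended on the scaling. It was 1 of 40 with median centring, beside 156 of 22522 probes, and 0 of 40 with no scaling, beside 23. Without scaling, *RT1-A1* in the dim array of bHR 29 (7.78) read under bHR 47 (7.85). For *RT1-A2* the brighter bLR 26 (8.47) read above bHR 47 (8.43) and bHR 41 (8.35). For *RT1-Db1* the brighter bLR 38 (7.26) read above bHR 47 (7.19). With the authors' own log2 table it was 3 of 40, beside 268. Within the 9 brighter arrays the 3 rats were lowest for *RT1-A3* and *RT1-A1* under all 3 scalings, and highest for *RT1-A2* with quantile normalisation and median centring but not without scaling. In those 9 arrays the order held for 3 of 40 other members with quantile normalisation, 4 with median centring and 3 without scaling, beside 2.42%, 1.66% and 1.91% of all probes. The RT1 genes are polymorphic and closely related, so a probe may read several of them or only some alleles. Whether these values reflect the amount of transcript or the sequence under the probe was not tested, because probe sequences were not used here.

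Genes that lie between RT1 genes on chromosome 20 of the GRCr8 assembly were set beside the members. Of 125 such probes that are not members, 4 (3.2%) had the same 3 rats at 1 end, namely *Ly6g6c*, *H2-Ob*, *Ehmt2* and *Bat1*, beside 1.46% of the 342 other probes of the chromosome. *H2-Ob*, now *RT1-DOb*, encodes a class II chain that regulates peptide exchange, and read 6.15 to 6.25 in the 3 rats and 6.33 to 6.55 in the other 9. All of these values lie under the median of all probes, 6.66. *Ly6g6c* read 6.80 to 6.998 in the 3 rats and at most 6.69 in the rest. *Ehmt2*, a histone H3 lysine methyltransferase, read 8.29 to 8.52 in the 3 rats and at least 8.58 in the rest. For *Bat1*, an RNA helicase now named *Ddx39b*, the margin was only 0.0095.

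**Figure D3:**
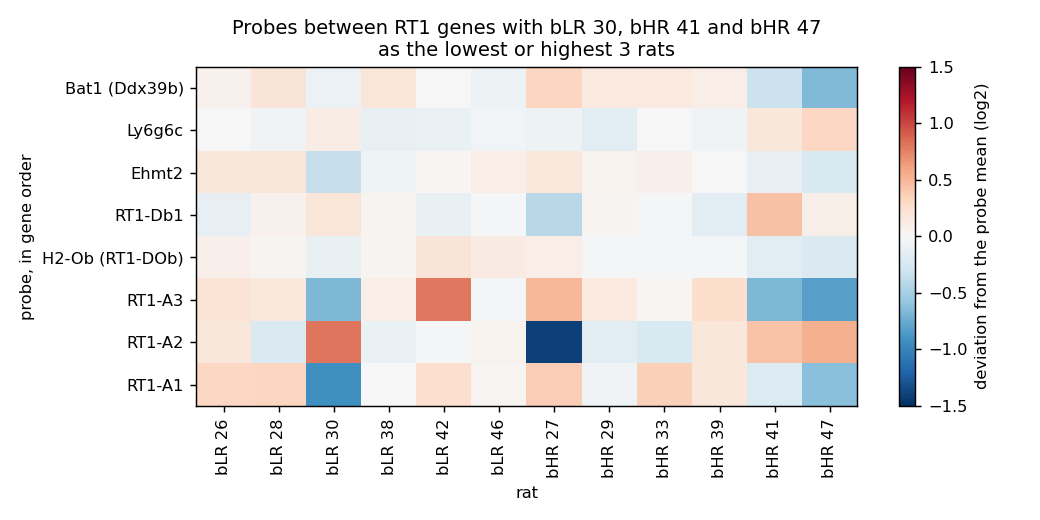
Deviation of 8 probes from their mean over the 12 rats (log2, on a colour scale symmetric about 0), with rats in columns and probes in gene order. The probes were chosen because bLR 30, bHR 41 and bHR 47 are their lowest or highest 3 rats, and the strongest colours among them are at *RT1-A1*, *RT1-A2* and *RT1-A3*.

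The probes most like *RT1-A3* over the 12 rats, by absolute Pearson r among probes that are not members, were *LOC500753* (0.945), *Usp10* (0.891), *LOC685462* (0.891), *H2-Ob* (0.885), *Il1rl1* (0.883), *Myd88* (0.871), *RGD1310061* (0.865), *Plekha3* (0.861), *Smyd2* (-0.857) and *LOC310436* (0.856). *H2-Ob* alone of these lies in the MHC stretch. *LOC500753*, *H2-Ob*, *Il1rl1* and *LOC310436* read under the median of all probes in every rat. An absolute r of at least 0.7 was found for 3 of 27 other RT1 members, *RT1-A1* (0.83), *RT1-CE15* (-0.80) and *RT1-Db1* (-0.75). For *RT1-A2* the r was -0.67. Such an r was found for 8 of 125 neighbouring probes (6.4%) and 1.26% of all probes. These values describe 12 arrays that share their normalisation.

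The start regions of the class Ia genes and of *B2m* are shown because the class Ia probes had the largest spread within lines of the 41 and because their products form 1 complex. Each is the 300 bases around the annotated transcript start, from RefSeq on GRCr8, the reference genome and not the genome of these rats. All are on the + strand, *RT1-A1* at chr20:4906959-4907258, *RT1-A2* at chr20:4872621-4872920, *RT1-A3* at chr20:4849201-4849500 and *B2m* at chr3:129549080-129549379. Capitals mark matches, on either strand, to the CCAAT box (CCAAT), the TATA box (TATAAA), the enhancer A kappa B site (GGGANTCCC) and the interferon-stimulated element (GAAA, any 2 bases, GAAA). The annotated gene start follows 180 bases of the window in *RT1-A1*, 99 in *RT1-A2*, 209 in *RT1-A3* and 156 in *B2m*. The TATAAA matches of these class Ia genes, at bases 272, 223 and 221, lie after that start. The *B2m* match is TTTATA, on the opposite strand, at bases 88 to 93. The CCAAT matches in these windows, *B2m* included, also lie after the annotated start, except the match at base 200 of *RT1-A3*. Whether a match acts as a promoter element was not tested.
RT1-A1: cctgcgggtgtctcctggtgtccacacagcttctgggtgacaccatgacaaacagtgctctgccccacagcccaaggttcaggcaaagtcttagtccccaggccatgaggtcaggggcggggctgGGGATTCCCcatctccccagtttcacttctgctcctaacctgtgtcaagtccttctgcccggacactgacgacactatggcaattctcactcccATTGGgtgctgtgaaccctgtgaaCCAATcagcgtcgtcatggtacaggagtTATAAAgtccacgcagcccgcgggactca
RT1-A2: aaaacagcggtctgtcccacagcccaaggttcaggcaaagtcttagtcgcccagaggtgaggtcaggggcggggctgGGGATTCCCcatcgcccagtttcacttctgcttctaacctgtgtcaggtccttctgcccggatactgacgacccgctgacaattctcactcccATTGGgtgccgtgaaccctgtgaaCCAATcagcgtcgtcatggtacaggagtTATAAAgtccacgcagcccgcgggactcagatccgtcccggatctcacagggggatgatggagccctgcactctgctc
RT1-A3: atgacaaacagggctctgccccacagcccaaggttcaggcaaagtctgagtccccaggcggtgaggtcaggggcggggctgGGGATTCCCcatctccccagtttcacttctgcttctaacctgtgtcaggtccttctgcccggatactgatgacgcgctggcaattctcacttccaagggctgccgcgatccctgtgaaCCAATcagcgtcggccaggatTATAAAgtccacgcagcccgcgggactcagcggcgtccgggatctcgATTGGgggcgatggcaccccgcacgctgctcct
B2m: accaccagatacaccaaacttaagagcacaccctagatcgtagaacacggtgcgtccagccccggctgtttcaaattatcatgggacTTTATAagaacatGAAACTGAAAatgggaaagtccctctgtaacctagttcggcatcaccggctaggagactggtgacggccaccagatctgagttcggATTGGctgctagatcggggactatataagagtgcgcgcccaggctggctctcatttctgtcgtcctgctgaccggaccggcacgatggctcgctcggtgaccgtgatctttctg

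Several of these motifs recur across the members. The enhancer A site was in 8 of the 38 member promoters in the table, all RT1, beside 0.681% of all 33469 promoters. The interferon-stimulated element was in 10 of 38 (*B2m*, *Psmb8*, *Psmb10*, *Psme2*, *Tap1*, *Tap2*, *Tapbp*, *RT1-N3*, *RT1-S2* and *RT1-S3*) beside 3.92%. CCAAT was in 24 of 38 beside 37.5%, TATAAA in 7 beside 14.2%, and the X2 box of class II promoters (TGACGCA) in 1, *RT1-CE15*, beside 1.90%. No matches overlapped each other in the windows printed. A window without a match says nothing of the factor. Aligned from end to end, *RT1-A1* and *RT1-A2* were identical at 232 of 251 paired positions (92.4%), *RT1-A1* and *RT1-A3* at 230 of 249 (92.4%) and *RT1-A2* and *RT1-A3* at 260 of 293 (88.7%), so these matches are not independent. The windows are offset against each other, which leaves the other positions unpaired. The other 2 member genes had no promoter among those searched.

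The class Ib genes, which encode less polymorphic or more specialised class I heavy chains, gave signals that were mostly near or under the median of all probes. Of 12 probes of the CE region 3 were above the median (*RT1-CE2*, *RT1-CE7* and *RT1-CE15*), and of 10 probes of the N, S, T, O and M regions 5 were. Their differences between the lines ran from -0.12 (*RT1-CE7*) to 0.06 (*RT1-CE13*) in the first group and from -0.09 (*RT1-149*, now *RT1-T24-4*) to 0.10 (*RT1-M1-2*) in the second. Their spread within lines was highest for *RT1-149*, *RT1-CE15* and *RT1-CE7*, at the 87.4, 86.7 and 83.6 percentile of all probes, and bLR 30 was the highest rat in each.

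*RT1-T24-1* read a lowest value of 6.12, a median of 6.24 and a highest of 6.29 in bHR, and 6.06, 6.12 and 6.19 in bLR. Only bHR 27 fell within the range of bLR. The difference was 0.09 with a 95% interval from -0.0011 to 0.19 (limma adjusted p = 0.83). *RT1-M1-2* read 6.24, 6.26 and 6.38 in bHR and 6.07, 6.19 and 6.28 in bLR, with a difference of 0.10 and an interval from -0.0093 to 0.21 (limma adjusted p = 0.83). Both probes stayed under the array median in each line. *RT1-M6-2* read 7.47, 7.51 and 7.64 in bHR and 7.54, 7.58 and 7.71 in bLR, a difference of -0.07 (95% interval -0.18 to 0.03, limma adjusted p = 0.87), and the lines overlapped. *Cd1d1*, a class I-like molecule that presents lipids, averaged 7.14 ± 0.12 in bHR and 7.17 ± 0.07 in bLR (SD, n = 6 each).

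The light chain *B2m* pairs with every class I heavy chain named above. It read a lowest value of 13.36, a median of 13.78 and a highest of 13.83 in bHR, and 13.75, 13.87 and 13.93 in bLR. The bHR rat 27 lay alone at 13.36, and the other 11 rats lay between 13.74 and 13.93. The difference was -0.14 ± 0.07 (SE), with a 95% interval from -0.29 to 0.01 (limma adjusted p = 0.83). It was -0.07 without bHR 27 and -0.06 in the 9 brighter arrays, but -0.45 with median centring and -0.65 with no scaling.

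*Tap2*, a chain of the peptide transporter, had the lowest unadjusted p of the members. It read 6.97, 7.13 and 7.21 (lowest, median and highest) in bHR and 7.09, 7.27 and 7.34 in bLR. Of the bLR rats only 30 and 42 lay within the range of bHR. The difference was -0.13 ± 0.06 (SE), with a 95% interval from -0.25 to -0.0077 and a limma adjusted p of 0.81. It was -0.07 in the 9 brighter arrays, -0.22 with median centring and -0.42 with no scaling. Its partner chain *Tap1* read 6.72, 6.87 and 7.01 in bHR and 6.72, 6.81 and 6.995 in bLR, a difference of 0.04 (95% interval -0.08 to 0.17). *Tapbp*, which encodes tapasin, read 7.27, 7.45 and 7.57 in bHR and 7.09, 7.48 and 7.59 in bLR, a difference of 0.01 (95% interval -0.16 to 0.19). The lines overlapped for both. With no scaling the 2 differences were -0.20 and -0.32.

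The immunoproteasome subunits replace catalytic subunits of the standard proteasome after interferon, and *Psme1* and *Psme2* encode its PA28 activator. In all 6 of these probes bHR 27 was the lowest rat. *Psmb10* read 10.43, 11.67 and 11.78 in bHR and 11.59, 11.67 and 11.82 in bLR, and its second probe 8.93, 9.93 and 10.34 against 9.82, 9.92 and 10.19. *Psmb8* read 7.43, 8.34 and 8.76 in bHR and 8.39, 8.41 and 8.51 in bLR. The medians of the lines lay close together, and the bHR rats spread to both sides of the bLR rats for *Psmb8* and the second *Psmb10* probe.

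*Psmb8* differed by -0.15 between the lines (95% interval -0.51 to 0.21, limma adjusted p = 0.94). Without bHR 27 the difference was 0.02. In the 9 brighter arrays it was 0.22 (limma adjusted p = 0.57), and with brightness as a block 0.21 (limma adjusted p = 0.97), so its sign differed with and without those arrays. *Psmb9* read 6.30, 6.43 and 6.64 in bHR and 6.34, 6.43 and 6.64 in bLR, with both means under the array median. *Psme1* read 11.07, 11.60 and 11.86 in bHR and 11.36, 11.48 and 11.66 in bLR, and *Psme2* 8.36, 8.90 and 8.99 against 8.83, 8.88 and 8.96. The bHR rats spread beyond the bLR rats at both ends for each activator subunit.

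**Figure D4:**
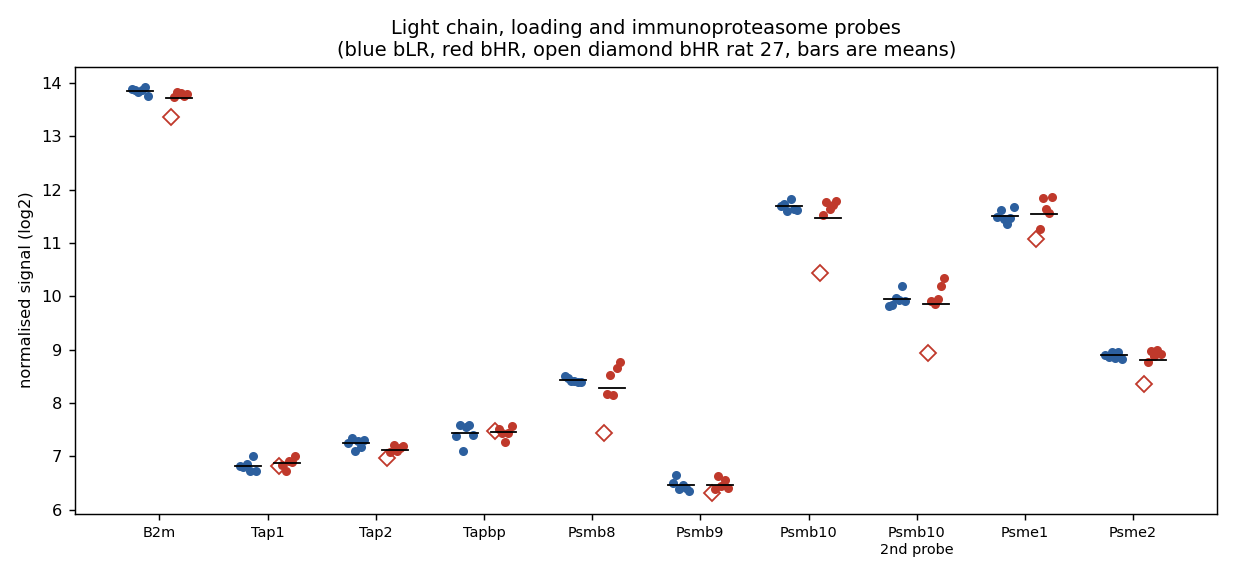
Log2 signal of the light chain, peptide loading, immunoproteasome and activator probes in each rat (bLR blue, bHR red, bHR 27 an open diamond), with bars at the line means. bHR 27 is the lowest of the 12 rats in *B2m* (13.36), *Tap2* (6.97) and all 6 immunoproteasome and activator probes.

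Over the 22 members above the median, bHR 27 was the lowest rat in 11 (50%), beside 18.9% of all such probes. Low values in bHR 27 were not confined to the members. Among MHC neighbours it read 9.41 for *Rpp21* (the other rats from 10.37), 10.64 for *Aif1* (from 11.39) and 9.29 for *Znrd1* (from 9.95). Its array is among the 3 dim ones and stands furthest from the others. The part of the array in these values was not tested.

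Of the 5 class II member probes only *RT1-Db1* was above the median. It read a lowest value of 6.66, a median of 7.09 and a highest of 7.51 in bHR and 6.95, 7.08 and 7.25 in bLR. The bHR rats lay on both sides of the bLR rats, and the difference was -0.01 (95% interval -0.25 to 0.22, limma adjusted p = 0.99), or 0.07 without bHR 27 and 0.17 in the 9 brighter arrays. *Cd74*, the invariant chain, read 6.23, 6.41 and 6.55 in bHR and 6.21, 6.34 and 6.47 in bLR, a difference of 0.06 (95% interval -0.08 to 0.21), or -0.02 in the 9 brighter arrays. *RT1-Ba*, *RT1-Ha* and *Ciita*, the class II transactivator, also stayed under the array median in each line, with differences from 0.01 to 0.03. Class II genes under other symbols also read above the median, *H2-Ea*, now *RT1-Da* (means 7.03 in bHR and 7.16 in bLR), and *H2-Oa* (6.74 and 6.63), while *H2-Ob* did not. Detection calls were not used here, so these levels are not shown to differ from background.

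Among RT1 genes listed under other symbols, 0 of 9 were called by limma. *H2-Oa*, now *RT1-DOa*, differed by 0.11, *H2-Ob* by -0.12 and *H2-M10.6* by -0.13 (limma adjusted p = 0.83, 0.83 and 0.86).

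Other genes of the pathway did not pass the test either, with 0 called in any list. For peptide loading and class I quality control all 14 genes were measured, with 0 at an unadjusted p under 0.05 and a median difference of -0.0099. Of 10 measured genes of the class II route, 2 were under 0.05 unadjusted, *Ap1m1*, an adaptor subunit of vesicle coats (0.22, limma adjusted p = 0.63), and *Lgmn*, an endosomal protease (0.12, limma adjusted p = 0.83). Of 22 measured regulators, 1 was, the interferon receptor chain *Ifnar1* (0.14, limma adjusted p = 0.82), and the median difference was 0.04. The 5 measured constitutive proteasome partners had a median of -0.05 and the 7 measured MHC-like receptors 0.05. Among 116 neighbouring probes of the MHC stretch 4 were under 0.05 unadjusted, among them *Rnf39* (-0.33), *Ddr1* (-0.18) and *Dom3z* (0.11).

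Markers of the cells that present antigen were read beside these genes. Of 15 measured microglial markers 14 were above the median, 0 were called, and the mean log2 level over the list ran from 8.66 to 8.97 in bHR and from 8.90 to 9.01 in bLR, with a median difference of -0.06. *C1qc*, a complement chain made by microglia, had the largest difference of them, -0.25 (limma adjusted p = 0.68). Of the border macrophage markers 5 of 7 were above the median, and 7 of 7 read lower in bHR, with a median difference of -0.05 and 0 called. Of the lymphocyte and dendritic cell markers 2 of 15 were above the median and 10 of 15 read lower in bHR, with a median difference of -0.02 and 0 called. Of the microglial markers 11 of 15 read lower in bHR. Over the whole array 11052 of 22523 probes read lower in bHR. The choroid plexus list ranged from 6.69 to 9.41 in bHR and from 8.04 to 9.16 in bLR. Their part in the MHC values was not tested.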

How the data were processed

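Total RNA of 12 hippocampi (6 bHR, 6 bLR) was measured on Illumina RatRef-12 arrays. The authors deposited linear intensity values, the average bead signal read with limma 3.28.21, and a table of log2 values quantile normalised with preprocessCore 1.34.0, per the submitters' processing notes. Detection p-values were not used, and for background correction the step is not given in the sources. Those intensities were put on the log2 scale and quantile normalised anew. The largest departure from the deposited log2 table was 0.254 and the median departure 0.00037.

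limma 3.58.1 (lmFit, eBayes; R 4.3.3) was run on all 22523 probes with line as the only factor, two-sided, with Benjamini-Hochberg adjustment over all probes and a threshold of 0.05. Gene names were matched to RefSeq of GRCr8 for all but 5625 probes, and all 41 members matched. The number of arrays limits the precision. The labels name 12 separate rats, which no pair number links.

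Members and gene lists were chosen with earlier results of these data known. The rule for named genes asked for values rat by rat of members called or with a step, the class Ia genes, *RT1-Db1*, the 5 lowest unadjusted p, *B2m*, *Cd74*, the *Tap* genes, *Tapbp*, *Psmb8* and *Psmb9*. They were printed so for the class Ia genes and by lowest, median and highest for the others. The non-members named were the 10 most correlated with *RT1-A3* and, from each list, at most the 3 with the lowest p. Neighbours with the 3 rats at 1 end, *Rpp21*, *Aif1*, *Znrd1* and *H2-Ea* were named after their values were seen. The marker lists also held blood, endothelium and astrocytes, with 0 called by limma among 4, 7 and 6 measured genes and median differences of -0.15, -0.0053 and 0.02. Alternatives were another scaling, background correction, filter, weights, block or subset of arrays, and leaving out each rat. The gap of 0.5 and the scalings tried on the order of the 3 rats were added after seeing the data.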

Additional observations from a re-analysis of the deposited data

Results flagged for a closer look

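In 10 of 82 groups of 6 rats, 1 rat lay apart from the other 5 by more than Dixon's 95% critical value. The nominal rate of about 1 in 20 holds for independent groups, and here the same rats recur in every probe. The share over all probes was not computed, so this count is not set against chance. The rat bHR 27 accounted for 4, with *B2m* at 13.36 (nearest 13.74), *Psmb10* at 10.43 (nearest 11.53), its second probe at 8.93 (nearest 9.86) and *Psme2* at 8.36 (nearest 8.77). The rat bLR 30 accounted for 3, with *RT1-A1* at 7.54 (nearest 8.46), *RT1-CE7* at 7.24 (nearest 6.89) and *RT1-149* at 7.92 (nearest 7.48). The others were *RT1-M1-2* at 6.38 in bHR 41 (nearest 6.28), *RT1-N2* at 6.86 in bHR 39 (nearest 6.72) and *RT1-O* at 6.23 in bHR 33 (nearest 5.99).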

How the results depend on the processing

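No member was called under any of the 21 alternatives, whose lowest limma adjusted p for a member ran from 0.092 (no scaling) to 0.98 (without bHR 29). No paired analysis was possible because every rat has a number of its own. The count of all probes called, 20, became 9 at an adjusted p of 0.01, 6 with median centring, 4 with no scaling and 6 with brightness as a block. It ran from 9 (without bLR 28) to 24 (without bHR 27), and was 11 without bHR 39, 12 without bHR 29 or bHR 47 and 13 without bLR 26 or bLR 30. The median over all probes was -0.017 with median centring and -0.22 with no scaling, and 0.00059 to 0.0030 leaving out a rat. The median over the members was -0.20 with no scaling, -0.071 over the 22 above the median, and -0.033 (without bHR 33) to 0.015 (without bHR 27) leaving out a rat. The sign of a member's uncalled difference changed for 21 of 41 with no scaling, 14 in the 9 brighter arrays, 14 with brightness as a block, 6 with median centring and 2 to 10 leaving out a rat. At a gap of 0.5, 1 member, *RT1-A3*, had a step with quantile normalisation, but it had none with no scaling. The cause of these changes was not tested. The 3 dim arrays are all bHR, and detection calls were not used, which limits statements on weak RT1 probes.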
